A study of Mus musculus with 12 samples.

Results

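Bile acid metabolism was followed through 10 genes in mouse hepatocytes, the parenchymal cells of the liver, taken as primary cells and kept in culture. They encode 4 enzymes of bile acid synthesis (Cyp7a1, Cyp8b1, Cyp27a1, Cyp7b1), 2 enzymes of conjugation (Slc27a5, Baat), 2 transporters (Abcb11, Slc10a1) and 2 nuclear receptors of the FXR circuit (Nr1h4, Nr0b2). The genes were picked by name, with earlier results of these data known, from the 55487 gene identifiers listed in each library, and all 10 were found. The 12 libraries form 4 groups of 3. Control cells had neither pretreatment nor FAC, an abbreviation that the labels leave unexplained. The FAC group was given FAC without pretreatment. The Lip-1+FAC group was first given liproxstatin-1 (Lip-1), which scavenges lipid reactive oxygen species, on culture day 2, and then FAC. The MT+FAC group was first given Mito-TEMPO (MT), which scavenges mitochondrial reactive oxygen species, on the same day, and then FAC. No group had a scavenger alone, so that an effect of a scavenger and a change in the response to FAC cannot be told apart. The strain, sex and age of the animals, the dose of each agent and whether replicates came from separate cultures or animals are not given in the labels. P-values therefore measure the spread between these libraries, which may be technical.

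Hepatocytes make bile acids from cholesterol by a classical route that Cyp7a1 opens and by an alternative route that runs through Cyp27a1 and Cyp7b1. Slc27a5 and Baat join the product to taurine or glycine, Abcb11 pumps the conjugates into bile, and Slc10a1 takes them back up from blood. Bile acids bind FXR, the receptor encoded by Nr1h4. FXR in turn raises transcription of Abcb11 and of Nr0b2, whose product SHP represses Cyp7a1 and Cyp8b1.

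FXR is known to bind an inverted repeat of the hexamer AGGTCA, in which AGGTCA, 1 base of any kind and TGACCT follow each other. Promoter sequences of 6 of the 10 genes were found in a RefSeq promoter table (build GRCm38.p6, 250 bases before to 50 after each start), with 2 starts for Slc10a1. The repeat reads the same on both strands. The window nearest to it in each promoter is shown here 5′ to 3′ on the gene's strand, to set the 6 genes side by side before their values, with every base that departs from the repeat in capitals.
Abcb11: aggCcattgacct
Cyp8b1: aggGcagGAacct
Slc10a1, first start: aggGcactTaGct
Slc10a1, second start: aggtcagAAaAct
Cyp27a1: aggtcTtGCaGct
Nr1h4: TggCATttgacct
Nr0b2: aCTtcattgacTA
Abcb11 departed from the repeat at 1 base. Its window lies at chr2:69342667-69342679 on the minus strand and begins 63 bases before the start site. Of the 32851 promoters in the table, 27 (0.0822%) held a window with at most 1 departure. Cyp8b1 and both starts of Slc10a1 departed at 3 bases, and 11.4% of all promoters came that near or nearer. Cyp27a1, Nr1h4 and Nr0b2 departed at 4, and Nr0b2 had 2 windows at that distance, of which the one farther upstream is shown. The hexamer alone, on either strand, was present in the promoters of Abcb11, Nr1h4 and the second start of Slc10a1, and in 16.3% of all promoters. The start listed for Nr1h4 lies inside the gene as GENCODE draws it, so that this window is not the region before its longest transcripts. These matches describe letters in the windows and do not show binding.

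The 250 bases before the Abcb11 start, chr2:69342617-69342866 on the minus strand, are given with the window in capitals because it is the nearest match among the 6 genes.
Abcb11 promoter: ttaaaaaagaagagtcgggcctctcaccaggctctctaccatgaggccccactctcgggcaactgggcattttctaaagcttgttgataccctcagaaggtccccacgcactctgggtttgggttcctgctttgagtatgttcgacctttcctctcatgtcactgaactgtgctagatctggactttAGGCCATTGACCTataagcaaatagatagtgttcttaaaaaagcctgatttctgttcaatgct

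The libraries held 22991598 to 31683376 counts assigned to genes, apart from FAC replicate 2 with 52529278, whose file is marked as combined without stating what was combined. Lines that name no gene (unmapped, multimapping, outside genes or ambiguous) made up 20.25% to 21.98% of the control files, 22.17% to 24.19% for FAC, 18.83% to 19.61% for Lip-1+FAC and 19.27% to 19.48% for MT+FAC. This share moved with the groups, and its part in the results was not tested. Levels are given as CPM, read counts scaled to the size of each library. A gene was called higher or lower at an adjusted p under 0.05 in edgeR's quasi-likelihood test, over 13535 genes with enough counts. Of the 10 genes, 9 passed the filter on low counts and were tested, and Cyp7a1 did not pass it. The labels mention no molecular tags, and reads from PCR-amplified cDNA are then not independent molecules, so that intervals from counts cover counting error only.

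FAC lowered 5 of the 9 genes tested and raised none. They were the conjugating enzyme Baat, the receptor Nr1h4, both transporters and, by less, Cyp27a1, with log2 fold changes from -1.66 to -0.36. Over all genes tested, 19.1% were called lower and 17.5% higher in this comparison. The median log2 fold change of the 9 genes was -0.77, against -0.0061 over all genes tested. This median is the value of Nr0b2, which had low counts and was not called here. In bulk samples such as these, fewer cells of a type and less RNA per cell cannot be told apart.

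After pretreatment with Lip-1 as with MT, 5 of the 9 genes were higher than after FAC alone and 1 was lower. In both comparisons Baat, Abcb11, Nr1h4, Cyp27a1 and Cyp7b1 were higher, and Slc27a5 was lower. With Lip-1, 20.7% of all genes tested were called higher and 19.2% lower. With MT, 21.2% were called higher and 19.7% lower. The median log2 fold change of the 9 genes was 0.55 with Lip-1 and 0.42 with MT, against 0.0006 and -0.0011 over all genes. The MT median is the value of Cyp8b1, which had low counts and was not called. All 3 comparisons use the same FAC libraries, so that they are not independent of each other.

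**Figure D1:**
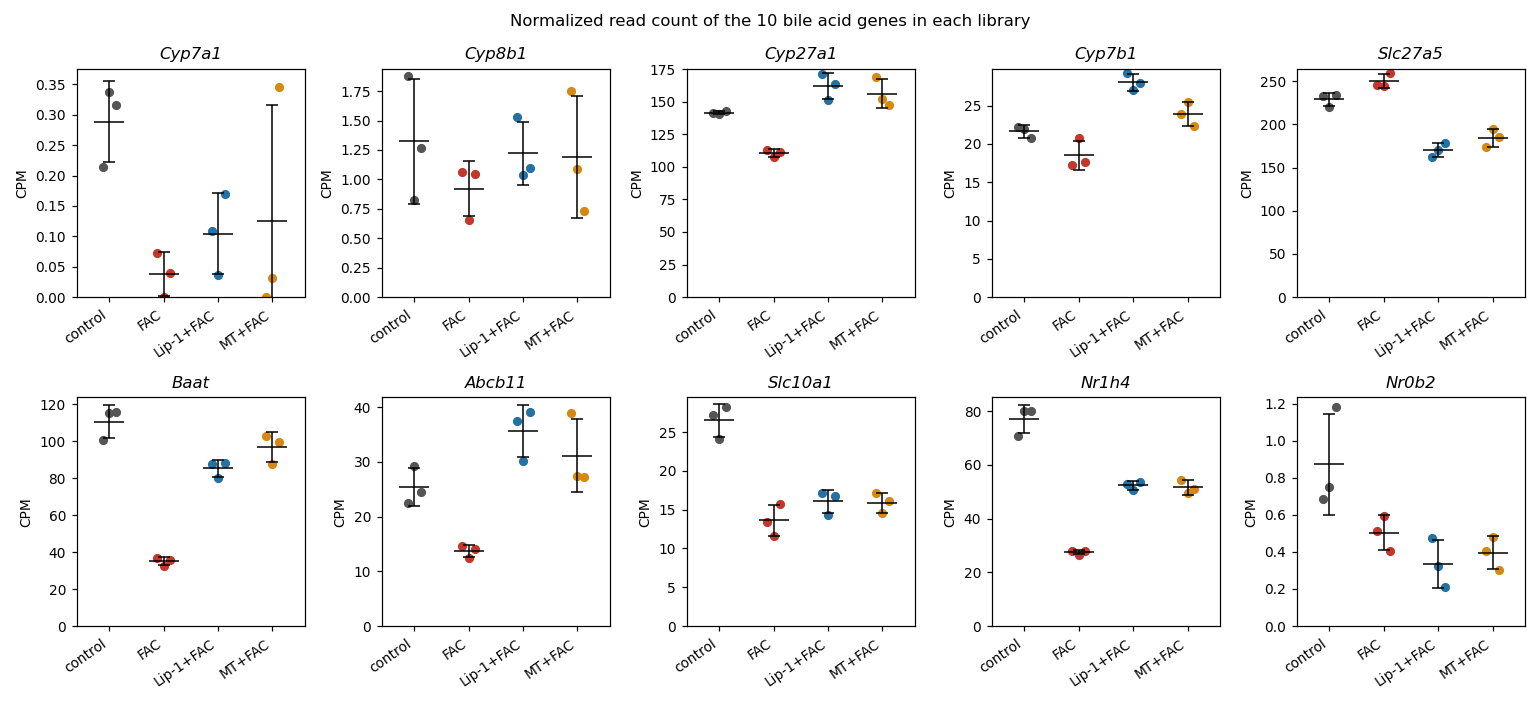
Normalized read count (CPM, vertical axis starting at 0, with its own scale in each panel) of the 10 genes in every library of the control, FAC, Lip-1+FAC and MT+FAC groups. Points are libraries, long bars are means and error bars are SD (n = 3), clipped at 0 for Cyp7a1. Baat, Abcb11 and Nr1h4 are lowest in the FAC libraries, and Slc10a1 is highest in the control libraries.

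Synthesis came first in the pathway, and its enzymes sat at very different levels. Cyp7a1 (ENSMUSG00000028240, GRCm38 chr4:6265612-6275633, minus strand), the rate-limiting enzyme of the classical route, was close to the detection limit. Its raw counts were 5, 9 and 8 in the control libraries, 2, 0 and 1 after FAC, 3, 1 and 4 after Lip-1 and FAC and 0, 1 and 8 after MT and FAC. The count of 0 in FAC replicate 2 allows a level of up to 0.0571 CPM, and that in MT+FAC replicate 1 up to 0.0947 CPM. Every control library was above every FAC library, while the MT+FAC libraries ranged from the lowest to the highest CPM of all 12.

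Summed over libraries and scaled to depth, the Cyp7a1 rate in FAC was 0.0973 of that in control (95% exact interval 0.0187 to 0.324), from 3 counts against 22. The rate was 0.343 of control in Lip-1+FAC (0.132 to 0.800, 8 counts) and 0.358 in MT+FAC (0.145 to 0.810, 9 counts). Of those 9 counts, 8 came from MT+FAC replicate 3. An exact two-sided permutation test of CPM against control gave p = 0.1 for FAC, 0.1 for Lip-1+FAC and 0.4 for MT+FAC, and 0.1 is the smallest p that 3 against 3 libraries allow. With no filter on low counts, edgeR called Cyp7a1 lower in FAC than in control, with a log2 fold change of -3.02 and an adjusted p of 0.034. DESeq2 gave it a log2 fold change of -3.10 and no adjusted p.

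Cyp8b1 (ENSMUSG00000050445, chr9:121914356-121916305, minus strand) is the sterol hydroxylase that sets the share of cholic acid in the pool, and it was also low. It read 1.88, 0.825 and 1.26 CPM in the control libraries, 1.06, 0.651 and 1.05 after FAC, 1.53, 1.04 and 1.10 after Lip-1 and FAC and 1.75, 1.09 and 0.734 after MT and FAC. The 4 groups overlapped, and the gene passed no test. Its log2 fold change in FAC was -0.55 (SE 0.384, adjusted p = 0.289), with a 95% interval of -1.35 to 0.26, and it ranged from -0.80 to -0.21 when each library was left out.

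Cyp27a1 (ENSMUSG00000026170, chr1:74713574-74737892, plus strand), the mitochondrial enzyme that oxidises the sterol side chain and starts the alternative route, was expressed at a far higher level. It read 141.6, 140.2 and 142.5 CPM in the control libraries, 112.6, 107.4 and 111.7 after FAC, 171.4, 151.3 and 163.3 after Lip-1 and FAC and 168.6, 151.7 and 147.6 after MT and FAC. The FAC libraries were the 3 lowest, and every pretreated library was above every control library. Cyp27a1 fell by 0.36 on the log2 scale with FAC (SE 0.0618, adjusted p = 2.09e-04), to 78.2% of control. It was 0.55 higher with Lip-1 (SE 0.0618, adjusted p = 1.70e-06) and 0.50 higher with MT (SE 0.0617, adjusted p = 6.64e-06) than with FAC alone.

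Cyp7b1 (ENSMUSG00000039519, chr3:18071950-18243338, minus strand) is the hydroxylase that acts after Cyp27a1. It read 22.2, 22.0 and 20.7 CPM in the control libraries, 17.3, 20.7 and 17.6 after FAC, 29.2, 27.0 and 28.0 after Lip-1 and FAC and 23.9, 25.5 and 22.4 after MT and FAC. FAC replicate 2 was level with the lowest control library, and the Lip-1+FAC libraries were the 3 highest of the 12. The FAC difference was -0.22 (SE 0.0926, adjusted p = 0.0771), and without FAC replicate 2 it was -0.31 with an adjusted p of 0.0247. Against FAC alone, Cyp7b1 was 0.59 higher with Lip-1 (adjusted p = 5.67e-05) and 0.36 higher with MT (adjusted p = 0.00439).

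Relative to FAC alone, the enzymes of conjugation went opposite ways after either pretreatment. Baat (ENSMUSG00000039653, chr4:49489422-49506557, minus strand) transfers the activated bile acid to taurine or glycine. It read 101, 115 and 116 CPM in the control libraries, 36.7, 32.7 and 35.8 after FAC, 87.8, 80.0 and 88.1 after Lip-1 and FAC and 103, 87.5 and 99.7 after MT and FAC. The FAC libraries were far below all others, the Lip-1+FAC libraries lay between FAC and control, and the MT+FAC libraries overlapped both Lip-1+FAC and control. Baat fell by 1.66 with FAC (SE 0.0796, adjusted p = 1.12e-10), to 31.6% of control, and 1.66% of all genes tested had a larger absolute log2 fold change. It was 1.28 higher with Lip-1 (SE 0.0792, adjusted p = 2.57e-09) and 1.47 higher with MT (SE 0.0793, adjusted p = 1.64e-09) than with FAC alone.

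Slc27a5 (ENSMUSG00000030382, chr7:12988346-12998192, minus strand) is the ligase that activates bile acids with coenzyme A before Baat acts. It read 233, 220 and 234 CPM in the control libraries, 246, 245 and 260 after FAC, 162, 170 and 178 after Lip-1 and FAC and 174, 194 and 186 after MT and FAC. The FAC libraries were the 3 highest, and every pretreated library was below every control library. The FAC difference of 0.13 did not pass the test (SE 0.0576, adjusted p = 0.0926). Relative to FAC alone, Slc27a5 fell by 0.56 with Lip-1 (SE 0.0579, adjusted p = 7.54e-07) and by 0.44 with MT (SE 0.0578, adjusted p = 1.29e-05).

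The transporters both fell with FAC and parted after pretreatment. Abcb11 (ENSMUSG00000027048, chr2:69238282-69342616, minus strand), the bile salt export pump whose promoter holds the near match to the repeat, shares 3.01% of its exon length with other annotated genes. It read 22.5, 29.3 and 24.4 CPM in the control libraries, 14.7, 12.5 and 14.1 after FAC, 37.6, 30.2 and 39.1 after Lip-1 and FAC and 38.9, 27.4 and 27.2 after MT and FAC. The FAC libraries were the 3 lowest, the Lip-1+FAC libraries were above all control libraries, and the MT+FAC libraries overlapped control. Abcb11 fell by 0.89 with FAC (SE 0.149, adjusted p = 2.33e-04), to 53.9% of control. Relative to FAC alone it was 2.60-fold higher with Lip-1 (log2 fold change 1.38, SE 0.147, adjusted p = 2.85e-06) and 2.28-fold higher with MT (1.19, SE 0.147, adjusted p = 1.54e-05).

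Slc10a1 (ENSMUSG00000021135, chr12:80953183-80968705, minus strand), the sodium-dependent importer of bile salts, stayed low. It read 27.2, 24.2 and 28.2 CPM in the control libraries, 13.48, 11.66 and 15.71 after FAC, 17.2, 14.4 and 16.8 after Lip-1 and FAC and 17.1, 14.5 and 16.1 after MT and FAC. Every FAC-treated library, pretreated or not, was below every control library, and the 3 FAC-treated groups overlapped. Slc10a1 fell by 0.97 with FAC (SE 0.118, adjusted p = 5.29e-06), to 51.1% of control. The difference from FAC alone was 0.25 with Lip-1 (95% interval -0.0008 to 0.50, adjusted p = 0.105) and 0.23 with MT (-0.02 to 0.48, adjusted p = 0.126). Without FAC replicate 3, these differences were 0.37 and 0.35 with adjusted p of 0.0267 and 0.0332. Leaving out other libraries brought them down to 0.14 and 0.13.

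Nr1h4 (ENSMUSG00000047638, chr10:89454234-89533585, minus strand), which encodes FXR, separated control, FAC alone and pretreatment without overlap. It read 71.0, 80.1 and 80.1 CPM in the control libraries, 27.8, 26.6 and 27.9 after FAC, 53.1, 50.5 and 53.7 after Lip-1 and FAC and 54.5, 49.4 and 50.9 after MT and FAC. The control libraries were the highest and the FAC libraries the lowest, with the pretreated groups overlapping each other between them. Nr1h4 fell by 1.49 with FAC (SE 0.0713, adjusted p = 1.12e-10), to 35.6% of control, and 2.51% of all genes tested had a larger absolute log2 fold change. It was 0.93 higher with Lip-1 (SE 0.0712, adjusted p = 2.56e-08) and 0.91 higher with MT (SE 0.0711, adjusted p = 5.43e-08) than with FAC alone.

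Nr0b2 (ENSMUSG00000037583, chr4:133553376-133556536, plus strand) encodes SHP, a repressor without a DNA-binding domain that FXR induces. It was low, with 16, 20 and 30 raw counts in the control libraries, 14, 31 and 10 after FAC, 13, 9 and 5 after Lip-1 and FAC and 13, 15 and 7 after MT and FAC. Scaled to depth these were 0.684, 0.750 and 1.18 CPM in the control libraries, 0.512, 0.594 and 0.404 after FAC, 0.473, 0.322 and 0.212 after Lip-1 and FAC and 0.406, 0.479 and 0.302 after MT and FAC. The control libraries were the 3 highest, and the other 3 groups overlapped. The FAC difference of -0.77 did not pass the test (SE 0.404, adjusted p = 0.151, -0.92 to -0.49 when each library was left out), nor did the differences from FAC alone of -0.59 with Lip-1 (adjusted p = 0.307) and -0.35 with MT (adjusted p = 0.545). These ranged from -0.91 to -0.36 and from -0.52 to -0.19 when each library was left out. The pretreated means were below the FAC mean for Nr0b2 and above it for Nr1h4.

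**Figure D2:**
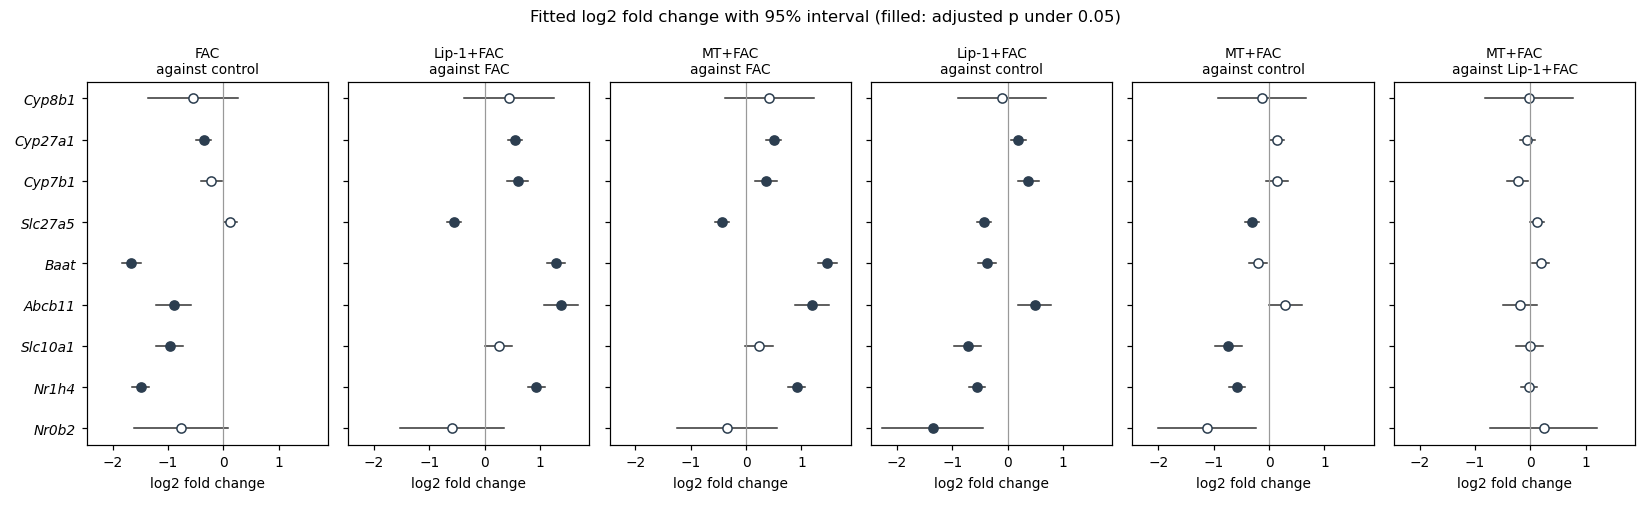
Fitted log2 fold change of the 9 genes tested (horizontal axis) in 6 comparisons, 1 per panel, with 95% intervals as lines. Filled points passed an adjusted p of 0.05 in edgeR's quasi-likelihood test over all genes. With FAC, 5 genes are filled to the left of 0. With either scavenger against FAC, 5 are filled to the right and Slc27a5 to the left.

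The pretreated groups were also set against control. In Lip-1+FAC, 3 of the 9 genes were higher and 5 lower than in control, where 15.4% and 14.8% of all genes tested were called higher and lower. Cyp7b1 was 0.38 higher (adjusted p = 0.00473), Abcb11 0.49 higher (adjusted p = 0.0181) and Cyp27a1 0.20 higher (adjusted p = 0.0226). Slc10a1 fell by 0.72 on the log2 scale (adjusted p = 1.52e-04) and Nr1h4 fell by 0.56 (adjusted p = 1.00e-05). Slc27a5 fell by 0.43 (adjusted p = 2.27e-05) and Baat fell by 0.38 (adjusted p = 0.00114). Nr0b2 fell by 1.36 (SE 0.434, adjusted p = 0.0249). The Nr0b2 call was lost with no filter on low counts (adjusted p = 0.065) and without control replicate 3 (0.134), Lip-1+FAC replicate 2 (0.0733) or Lip-1+FAC replicate 3 (0.104). The calls of Cyp27a1 and Abcb11 were lost without control replicate 1, Lip-1+FAC replicate 1 or Lip-1+FAC replicate 3, and that of Abcb11 also without control replicate 3.

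In MT+FAC, none of the 9 genes was higher than control and 3 were lower, where 9.71% and 10.1% of all genes tested were called higher and lower. Slc10a1 fell by 0.74 (adjusted p = 3.10e-04), Nr1h4 by 0.58 (adjusted p = 2.09e-05) and Slc27a5 by 0.31 (adjusted p = 0.00116). Nr1h4 stood at 67.0% of control and Slc10a1 at 60.0%. Nr0b2 stood at 46.1% of control without passing the test (log2 fold change -1.12, adjusted p = 0.0703). Thinned to the lowest library total, it was called (adjusted p = 0.0399). Abcb11 was 0.30 above control (adjusted p = 0.164), from 0.10 to 0.41 when each library was left out, and was called with no filter on low counts (adjusted p = 0.017). Baat differed by -0.19 (adjusted p = 0.081) and was called without control replicate 1 (-0.26, adjusted p = 0.0456), while without another library it was -0.12.

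The scavengers were also compared with each other. None of the 9 genes was called between MT+FAC and Lip-1+FAC by edgeR or by DESeq2, and 1.34% of all genes tested were called in either direction by edgeR. Without adjustment, 2 of the 9 had p under 0.05 in edgeR's test, as did 1795 of all 13535 genes tested. The 2 were Cyp7b1 with -0.23 (95% interval -0.42 to -0.04) and Baat with 0.18 (0.02 to 0.34). For Nr1h4 the difference was -0.02 (-0.17 to 0.12), for Slc10a1 -0.02 (-0.27 to 0.23) and for Abcb11 -0.19 (-0.49 to 0.11). The Abcb11 difference lay between -0.38 and -0.11 when each library was left out. The intervals were wide for the low genes Cyp8b1 (-0.82 to 0.77) and Nr0b2 (-0.73 to 1.21), for which this design could not resolve a difference of moderate size.

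Between genes, levels were compared as CPM per kilobase of exon, since a longer transcript yields more reads. In control, Slc27a5 led with 93.8 ± 3.16 (SD, n = 3), followed by Cyp27a1 with 65.1 ± 0.553, Baat with 57.0 ± 4.47, Nr1h4 with 33.5 ± 2.29 and Slc10a1 with 12.1 ± 0.958. Cyp7b1 followed with 9.99 ± 0.369 and Abcb11 with 4.93 ± 0.679. The lowest were Nr0b2 with 0.771 ± 0.240, Cyp8b1 with 0.678 ± 0.272 and Cyp7a1 with 0.0692 ± 0.0159. Among neighbours in this order, only Nr0b2 and Cyp8b1 had overlapping ranges of mean ± SD.

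The order shifted with treatment. In FAC, Slc27a5 stood at 102 ± 3.41 CPM per kilobase and Baat at 18.1 ± 1.06, so that the ligase exceeded the transferase by a wider margin than in control. Slc10a1 (6.19 ± 0.921) was below Cyp7b1 (8.56 ± 0.872) in FAC, the reverse of control. In Lip-1+FAC, Cyp27a1 (74.5 ± 4.66) and Slc27a5 (69.7 ± 3.37) had overlapping ranges of mean ± SD, as they did in MT+FAC (71.8 ± 5.10 and 75.7 ± 4.28).

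**Figure D3:**
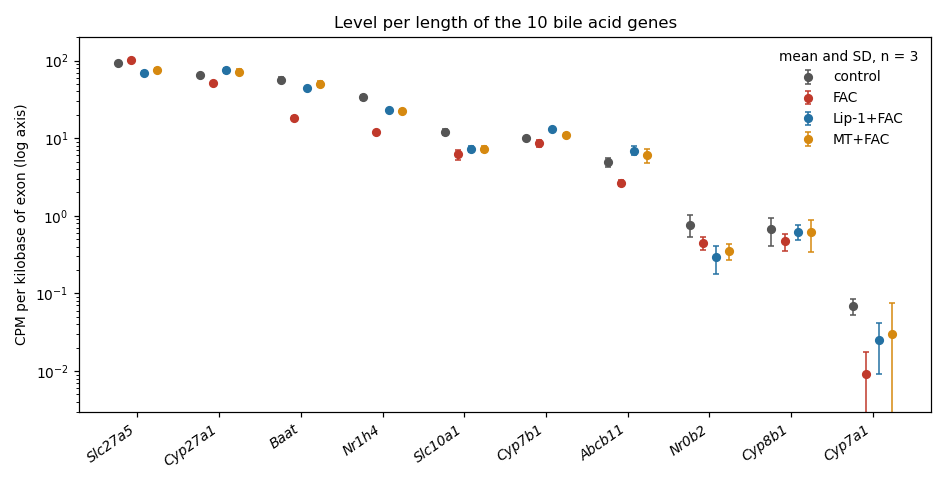
Mean level per length (CPM per kilobase of exon, log axis) of the 10 genes, ordered by their control level, in the 4 groups. Points are means and error bars SD (n = 3), and lower bars of Cyp7a1 run off the axis. Levels span from 102 for Slc27a5 in FAC to 0.00906 for Cyp7a1 in FAC.

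The rest of the synthesis pathway was read from 15 further enzymes and cholesterol carriers, of which 12 were tested. With FAC, 9 fell and 1 rose, with a median log2 fold change of -0.49, where 19.1% of all genes tested fell and 17.5% rose. With Lip-1 against FAC, 7 were higher and 1 lower (median 0.41), and with MT 7 were higher and 2 lower (median 0.52). Over all genes tested, 20.7% were higher and 19.2% lower with Lip-1, and 21.2% higher and 19.7% lower with MT. Akr1d1, the reductase that saturates the sterol ring, fell by 1.02 with FAC (adjusted p = 6.53e-06) and read 0.31 and 0.27 above FAC with Lip-1 and MT, neither passing the test. Amacr, a racemase of side chain shortening, fell by 0.99 (adjusted p = 6.42e-06) and was 0.54 and 0.95 higher with the scavengers (adjusted p = 0.00214 and 9.02e-06). Star, which carries cholesterol into mitochondria, went the other way. It rose by 1.06 with FAC (adjusted p = 0.00366) and fell by 0.89 with Lip-1 (adjusted p = 0.0101, lost without FAC replicate 1) and by 0.80 with MT (adjusted p = 0.0172, lost without FAC replicate 1 or MT+FAC replicate 2). The reads of Hsd3b7, the dehydrogenase of the ring, were listed at 0 in all libraries, and 99.2% of its exon length overlaps other annotated genes.

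Of 15 further transporters, 13 were tested. With FAC, 4 rose and 6 fell (median -0.12), with Lip-1 against FAC 8 were higher and 3 lower (median 0.65), and with MT 8 were higher and 4 lower (median 0.49). The shares over all genes tested were 17.5% higher and 19.1% lower with FAC, 20.7% and 19.2% with Lip-1, and 21.2% and 19.7% with MT, and the 4 of 13 that rose with FAC are not far above them. The canalicular pumps did not move as one. Abcb4, which moves phosphatidylcholine into bile, followed Abcb11 in direction, falling by 0.49 with FAC (adjusted p = 0.00631) and standing 1.22 and 1.08 higher with Lip-1 and MT (adjusted p = 4.56e-06 and 1.69e-05). Abcg5, part of the sterol exporter, fell by 0.95 and stood 1.04 and 0.80 higher (adjusted p = 9.20e-05, 2.95e-05 and 4.11e-04).

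Abcc2, the canalicular pump for organic anions, rose with FAC instead. It read 114, 119 and 105 CPM in the control libraries, 200, 193 and 166 after FAC, 381, 404 and 438 after Lip-1 and FAC and 289, 261 and 257 after MT and FAC. No library of one group overlapped another group. Abcc2 was 0.73 higher in FAC than in control (adjusted p = 1.16e-06), and 1.13 and 0.53 higher with Lip-1 and MT than with FAC alone (adjusted p = 6.73e-09 and 3.07e-05). Abcc4, which exports bile acids back to blood, differed by 0.50 with FAC without passing the test (adjusted p = 0.121; 0.29 to 0.85 over the alternatives, and called without control replicate 1) and was 1.47 and 0.88 higher with the scavengers (adjusted p = 3.80e-05 and 0.00435). Slc10a5, a relative of Slc10a1 in the same carrier family, fell by 1.56 with FAC (adjusted p = 1.90e-05) and was 1.92 and 1.67 higher with the scavengers (adjusted p = 1.40e-06 and 8.39e-06).

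Of 15 further regulators, 14 were tested. With FAC, 2 rose and 6 fell (median -0.29), with Lip-1 against FAC 3 were higher and 4 lower (median 0.08), and with MT 5 were higher and 5 lower (median -0.0008). The MT count of 10 was 6 without FAC replicate 2. Over all genes tested, 17.5% rose and 19.1% fell with FAC, 20.7% were higher and 19.2% lower with Lip-1, and 21.2% higher and 19.7% lower with MT, so that the regulators that rose with FAC or moved with Lip-1 made up shares near those of all genes. Nr1i2, the xenobiotic receptor PXR that also senses bile acids, fell by 0.99 with FAC (adjusted p = 5.46e-06). It was 0.64 higher with MT (adjusted p = 4.10e-04) and 0.22 above FAC with Lip-1, which did not pass the test (adjusted p = 0.167) but did without Lip-1+FAC replicate 1. Mafg, a transcription factor that represses bile acid synthesis genes, rose by 0.84 with FAC (adjusted p = 1.56e-06) and differed from FAC by -0.02 with Lip-1 (adjusted p = 0.882). With MT it fell by 0.25 relative to FAC (adjusted p = 0.0299), a call lost without FAC replicate 2, MT+FAC replicate 2 or MT+FAC replicate 3. Fgfr4, the hepatic receptor for the intestinal hormone Fgf15, differed by -0.03 with FAC (adjusted p = 0.881) and fell by 1.01 with Lip-1 and by 0.52 with MT relative to FAC alone (adjusted p = 4.19e-06 and 0.00202). Fgf15 itself was at 0 counts in all 12 libraries.

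Of the 6 genes of bile acid and steroid detoxification, 1 rose and 2 fell with FAC (median -0.10). With each scavenger against FAC, 2 were higher and 4 lower, with medians of -0.70 and -0.73. The 1 of 6 that rose with FAC is close to the 17.5% over all genes tested, where 19.1% fell. With Lip-1, 20.7% of all genes were higher and 19.2% lower, and with MT 21.2% and 19.7%. Cyp2b10, a drug-inducible cytochrome P450, fell by 1.18 with FAC (adjusted p = 4.34e-09) and was 1.26 and 1.28 higher with Lip-1 and MT (adjusted p = 1.82e-09 and 3.12e-09). Sult2a8, a sulfotransferase of bile acids, differed by 0.02 with FAC (adjusted p = 0.938) and fell by 1.23 and 1.34 with the scavengers relative to FAC (adjusted p = 6.37e-06 and 3.22e-06). Ugt1a1, which joins bilirubin to glucuronic acid, fell by 1.13 and 1.21 (adjusted p = 0.00486 and 0.00333), and by as little as 0.77 and 0.71 under the alternatives run. Its counts are uncertain, since 82.7% of its exon length overlaps other annotated genes, mostly of the same cluster.

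**Figure D4:**
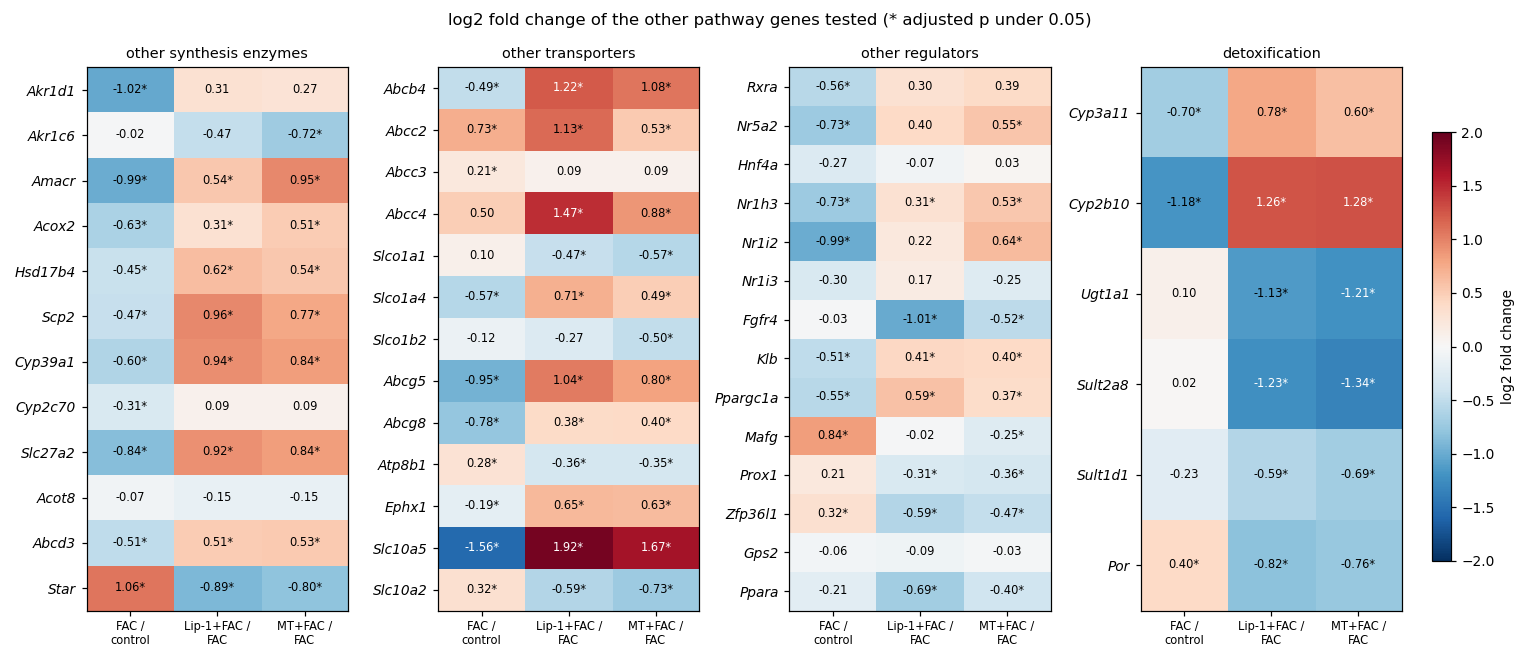
Fitted log2 fold change of the further pathway genes tested, in 4 panels by role, with 1 row per gene and 1 column per comparison (FAC against control, then Lip-1+FAC and MT+FAC against FAC). Blue is lower, red is higher, the printed number is the log2 fold change and an asterisk marks an adjusted p under 0.05. Slc10a5 carries the deepest colours, with -1.56, 1.92 and 1.67.

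Patterns across libraries were then compared between genes. Likeness was measured as the root mean square difference of log2 CPM, each gene centred on its own mean, over the 12 libraries and among genes with a mean of at least 5 CPM. The patterns nearest to Nr0b2 were those of Urad (0.287), Aspdh (0.306) and Urah (0.309), against a median of 0.583 over 9000 genes. Nr0b2 itself had 5 to 31 raw counts per library, and a prior count of 2 was added before taking logs. Its distances are therefore uncertain. The mean level of Urad was 12.6 CPM in the control libraries, 8.98 after FAC, 6.36 after Lip-1 and FAC and 6.62 after MT and FAC. Nr1h4 and Baat were added to this search after their values were seen. Nearest to Nr1h4 were Glyctk (0.0875), Marc1 (0.0994) and Fmo5 (0.122), against a median of 0.555. Glyctk averaged 81.3 CPM in the control libraries, 27.7 after FAC, 49.0 after Lip-1 and FAC and 54.6 after MT and FAC. This was close to Nr1h4 in CPM as well, which takes no account of transcript length. Nearest to Baat were Spon2 (0.0846), Etfbkmt (0.127) and Hfe2 (0.134), against a median of 0.668. Cyp7a1 had too few counts for this measure.

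The libraries were checked for hepatocyte identity and for other cell types by marker lists. The 7 hepatocyte markers summed to 52784 to 56456 CPM in the control libraries, 47817 to 50812 after FAC, 52895 to 58519 after Lip-1 and FAC and 57482 to 58110 after MT and FAC. Most of this was Trf, at a mean of 38124 CPM in control, 33565 in FAC, 42087 with Lip-1 and 44615 with MT. With FAC, 2 of the 7 were called lower than control and none higher. Relative to FAC, 5 of the 7 were called lower and 2 higher (Trf and Cps1) with each scavenger. Relative to control, 6 were lower with Lip-1, and 5 were lower and 1 higher with MT. Over all genes tested, 17.5% were higher and 19.1% lower with FAC than in control. Against FAC, 20.7% were higher and 19.2% lower with Lip-1, and 21.2% higher and 19.7% lower with MT. Against control, 15.4% were higher and 14.8% lower with Lip-1, and 9.71% higher and 10.1% lower with MT. The 6 cholangiocyte markers summed to 58.6 to 69.0 CPM in control, 98.4 to 123 in FAC, 110 to 125 in Lip-1+FAC and 104.0 to 144.7 in MT+FAC, while Cftr was at or near 0 in all libraries. The sum hides opposite changes. With FAC, 4 of the 5 tested members were called higher (median log2 fold change 1.32), and with each scavenger the 4 fell relative to FAC (list medians -2.46 and -1.88). Sox9 averaged 17.4 CPM in control, 53.4 in FAC, 12.01 with Lip-1 and 15.1 with MT. The high sums of the pretreated groups were mostly Spp1, which averaged 101 CPM with Lip-1 and 103 with MT against 43.6 in FAC. The 6 macrophage markers summed to 223 to 254 CPM in the control libraries, 289 to 321 after FAC, 115.7 to 146.2 after Lip-1 and FAC and 142.6 to 174.0 after MT and FAC. Nearly all of this was Cd68, which rose by 0.39 with FAC (adjusted p = 0.00529). Clec4f, which defines Kupffer cells, did not exceed 1.495 CPM and fell by 1.08 with FAC (adjusted p = 0.0456). The other 5 macrophage markers differed upwards, and the list's median was 0.32. The stellate cell list summed to 9.27 to 14.3 CPM in the control libraries, 18.9 to 19.6 after FAC, 7.90 to 9.19 after Lip-1 and FAC and 9.06 to 9.81 after MT and FAC. Its rise with FAC was in Reln, from a mean of 7.46 to 16.1 CPM, while Dcn fell by 0.60 (adjusted p = 0.0381) and the list's median was -0.56. The endothelial list read 33.7 to 36.0, 31.6 to 33.4, 24.9 to 25.7 and 25.2 to 29.1 CPM in the same order, mostly from Stab2, which was called lower with each scavenger than with FAC (-0.57 and -0.46), while the list's medians were 0.27 and 0.28. Lymphocyte markers stayed at or under 0.432 CPM, with Cd3e at 0. The part of these marker differences in the results for bile acid genes was not tested.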

How the data were processed

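Per the labels' protocols, the SMART-Seq v4 kit was used, which amplifies full-length cDNA by PCR, and Nextera XT libraries were sequenced as paired ends. Reads were aligned with STAR to build GRCm38, per the submitters' processing notes; the version and the annotation are not given in the sources used here. The authors deposited raw counts of reads per gene. Lines that name no gene held 18.83% to 24.19% of each file and stayed out. The unstranded column was used. Of 55487 identifiers, 55227 were found in GENCODE M21, the source of names and coordinates. blastn 2.17.0 found no near-identical copy of any of the 10 genes (95% identity over 200 bases).

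Counts were tested with edgeR 4.0.16 in R 4.3.3 (quasi-likelihood F test, TMM, filterByExpr, 1 fit of 4 group means over 12 libraries), two-sided, with Benjamini-Hochberg adjustment over 13535 genes. The procedure was tested on simulated data. The common coefficient of variation was 9.71%, and TMM factors were 0.989 to 1.01. Alternatives were other scalings, filters, columns and depths, DESeq2 1.42.0, a replicate block and leaving out each library. The 10 genes and the lists were chosen with earlier results of these data known. From each list, genes called in FAC against control or a scavenger against FAC with a log2 fold change of 1 or more in size could be named, filled to 3 by size. Marker lists covered hepatocytes, with transferrin as Trf, and 5 other cell types.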

Additional observations from a re-analysis of the deposited data

Results flagged for a closer look

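Abcc2, the canalicular pump for organic anions, differed between the pretreatments. It was -0.60 on the log2 scale in MT+FAC against Lip-1+FAC (SE 0.0751, 95% interval -0.76 to -0.44, adjusted p = 3.13e-04 in edgeR's quasi-likelihood test of that difference). The value ranged from -0.65 to -0.55 over the alternatives run, and the call held in each of them. It was called there alone among the 9 bile acid genes and the further pathway genes tested, where 1.34% of all genes tested were called. However, Fgfr4 (0.49) was called under 8 alternatives, DESeq2 and the replicate block among them, Amacr (0.42) under 3 and Nr1i2 (0.42) under 2.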

How the results depend on the processing

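The number of the 9 tested genes called kept within 1.5 times its value under every alternative run in 5 of the 6 comparisons. In Lip-1+FAC against control it was 8, and 5 to 8 when each library was left out, with 5 without Lip-1+FAC replicate 3, where Cyp27a1, Abcb11 and Nr0b2 lost their calls. No called gene changed direction. Of the differences that passed no test, 4 close to 0 changed sign without 1 library, namely Cyp8b1 in Lip-1+FAC and MT+FAC against control (-0.35 to 0.23 and -0.52 to 0.21) and Cyp8b1 and Slc10a1 in MT+FAC against Lip-1+FAC (-0.40 to 0.21 and -0.09 to 0.03). Among values for single genes under the alternatives, 1104 kept their side of the threshold, 11 lost and 6 gained a call. No pairing of the libraries by replicate number was seen in correlations, which cannot show how the cells were prepared. Of 18 same-numbered pairs, 3 had a correlation of deviations over 0.1 (range -0.249 to 0.164), against -0.196 to 0.222 for other pairs, and 4 of 12 libraries correlated best with their own number. With the replicate block, 5 of the 9 genes were called in FAC against control, as without it. Over all genes, MT+FAC against Lip-1+FAC gave 182 calls, 477 with no filter, 437 with DESeq2, 312 with only the libraries compared, and 74 to 86 without Lip-1+FAC replicate 1, Lip-1+FAC replicate 2, MT+FAC replicate 2 or MT+FAC replicate 3. Depth limits Cyp7a1, Cyp8b1 and Nr0b2, with at most 9, 56 and 31 raw counts in a library.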
